A study of Caenorhabditis elegans with 24 samples.

Results

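A set of 9 *C. elegans* genes that DAF-16 is known to act on was followed in the RNA of 4 genotypes: *sod-3*, *mtl-1*, *mtl-2*, *hsp-12.3*, *hsp-12.6*, *lea-1*, *dod-3*, *ctl-1* and *ctl-2*. They were chosen by name, from what is known of them as stress and longevity targets of DAF-16, and all 9 were found by gene identifier among the 46508 genes of the count table. All 9 had at least 20 reads in at least 1 library and were among the 14667 genes tested. Ribosomal RNA was removed from total RNA of whole worms at the L4 stage, the last larval stage, and the rest was sequenced in 8 libraries, 2 of each genotype. The genotypes were N2, the wild-type strain, the *set-9(rw5)* mutant, whose CRISPR-made deletion creates a premature stop codon, the *set-26(tm2467)* deletion mutant, and the double mutant that carries both alleles. Worms were grown at 20 °C. No drug or other treatment separates the groups, and each mutant group is 1 strain. Which generation of double mutants was sequenced is not in the labels, while the study's methods describe homozygotes of the first and of a later generation descended from parents balanced with nT1. Each library was made from pooled worms, and whether the 2 libraries of a genotype came from separate cultures is not stated, so the p-values measure the spread between these libraries, which may be technical.

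DAF-16 is the worm's FOXO transcription factor and the main output of insulin-like signalling. When the insulin receptor DAF-2 is active, the kinases AKT-1, AKT-2 and SGK-1 phosphorylate DAF-16 and it stays in the cytoplasm. When signalling is low, DAF-16 enters the nucleus and raises genes for antioxidant enzymes, metal-binding proteins and chaperones, and worms live longer and resist stress. It binds a short element, GTAAACA or its reverse complement TGTTTAC, often called the DAF-16 binding element. A second element, CTTATCA or its reverse complement TGATAAG, is also common in front of DAF-16 targets and is called the DAF-16 associated element. SET-9 and SET-26 are a pair of closely similar proteins with a PHD finger and a SET domain.

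Of the 9 genes, 3 carried an exact DAF-16 binding element between 250 bases before and 50 bases after the annotated gene start: *sod-3*, *mtl-1* and *dod-3*. Their windows are shown because they hold the element, while *lea-1*, the other gene called in a comparison, has none there, and they are printed from the WBcel235 assembly, 5′ to 3′ on the gene's own strand, with exact matches to either element in capitals.
*sod-3*, chrX:17092503-17092802, plus strand: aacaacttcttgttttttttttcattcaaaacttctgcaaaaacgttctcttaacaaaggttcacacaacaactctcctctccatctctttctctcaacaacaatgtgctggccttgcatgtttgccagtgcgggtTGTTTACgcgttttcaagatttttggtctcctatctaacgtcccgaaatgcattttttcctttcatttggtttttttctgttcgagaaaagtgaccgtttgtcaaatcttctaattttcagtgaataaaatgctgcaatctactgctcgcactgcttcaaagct
*mtl-1*, chrV:6691814-6692113, minus strand: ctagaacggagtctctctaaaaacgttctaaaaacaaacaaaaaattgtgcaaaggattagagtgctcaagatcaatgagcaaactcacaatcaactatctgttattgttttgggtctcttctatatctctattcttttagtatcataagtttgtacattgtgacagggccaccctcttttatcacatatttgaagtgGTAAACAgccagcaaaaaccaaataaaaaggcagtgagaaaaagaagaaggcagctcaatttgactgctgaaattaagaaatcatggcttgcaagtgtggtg
*dod-3*, chrV:2731049-2731348, minus strand: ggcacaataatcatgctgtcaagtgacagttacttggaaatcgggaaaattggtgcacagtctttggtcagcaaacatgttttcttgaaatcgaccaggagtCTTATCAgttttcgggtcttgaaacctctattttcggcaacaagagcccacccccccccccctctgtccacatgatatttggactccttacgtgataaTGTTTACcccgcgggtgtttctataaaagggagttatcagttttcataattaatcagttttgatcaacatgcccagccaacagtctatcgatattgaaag
The match in *sod-3* began at base -114 from the start and read TGTTTAC, the one in *mtl-1* began at -52 and read GTAAACA, and the one in *dod-3* began at -50 and read TGTTTAC. The *dod-3* window also held 1 CTTATCA at -148. Among the same 300-base windows of 13797 tested protein-coding genes, 5.07% held the binding element and 9.69% the associated element, both strands counted. The letters of the elements do not overlap each other in any of the printed windows.

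The windows of *ctl-1* and *ctl-2* held the associated element at -145 and no binding element, and they were the same at 300 of 300 positions. The windows of *mtl-2*, *hsp-12.3*, *hsp-12.6* and *lea-1* held neither. When the window was extended to 1000 bases before the start, *sod-3* had a second binding element at -377, *mtl-1* an associated element at -425, *lea-1* an associated element at -727 and *ctl-1* and *ctl-2* a second associated element at -990. At that length 14.0% of the tested genes held the binding element and 22.1% the associated element. *lea-1* has 17 annotated transcripts, and its window was taken at the most distant start. A match is a string of letters only and was not tested as a site of binding.

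**Figure D1:**
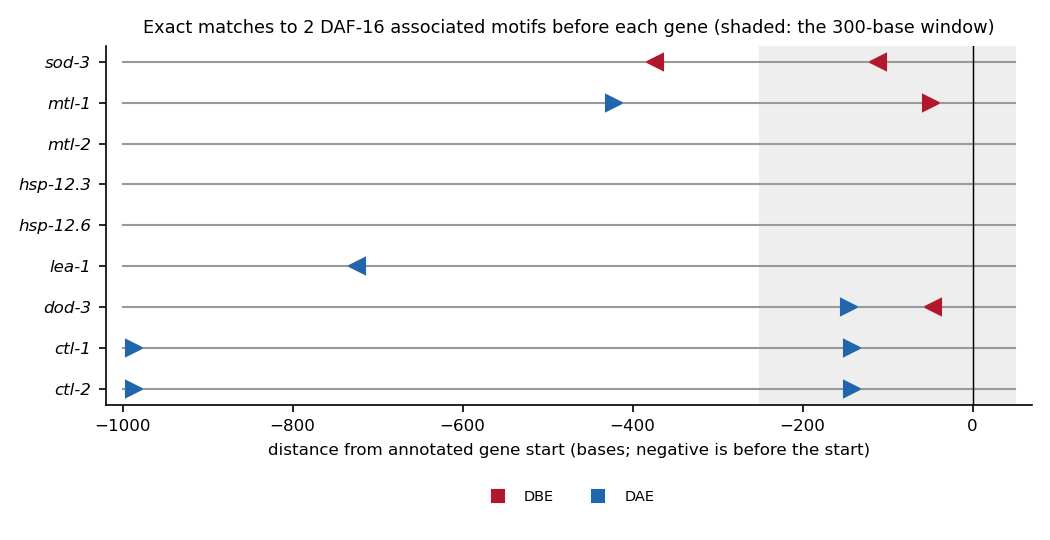
Exact matches to the DAF-16 binding element (DBE) and the DAF-16 associated element (DAE) before each of the 9 genes. The x axis is the distance in bases from the annotated gene start, arrowheads point in the direction in which the element's own letters read relative to the gene, and the shaded band is the 300-base window; *sod-3*, *mtl-1* and *dod-3* have a DBE in the band, and *mtl-2*, *hsp-12.3* and *hsp-12.6* have no match of either kind.

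Library totals ran from 16363189 to 26187811 reads, so 3 reads stood at 0.115 to 0.183 CPM, read counts scaled to a common library size. Levels are given as CPM after TMM scaling, and levels of different genes are compared as RPKM, which also divides by the length of the exons. Replicates correlated at r = 0.983 to 0.989 across genes, which are not independent. The *set-9* gene itself checked the labels for the *set-9* allele only. It stood at 90.4 and 91.4 CPM in N2 and at 46.0 and 39.9 in *set-9*, and its log2 fold change against N2 was -1.08 ± 0.11 in *set-9*, 0.29 ± 0.11 in *set-26* and -1.52 ± 0.11 in the double mutant. The closely similar *set-26* gene, with which its reads could be shared, was not analysed here, so the labels for the *set-26* allele were not checked. All tested genes of the lists of intestine, germline, muscle and neuron markers were detected in every genotype, so the tissues of a whole worm were present.

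The 9 genes differed widely in level. In N2, the metallothionein *mtl-2* was the highest at 225 ± 31.9 RPKM (SD, n = 2), and *lea-1* came next at 51.0 ± 1.63 RPKM. *ctl-2* stood at 11.5 ± 4.02 RPKM, *mtl-1* at 6.93 ± 2.03 and *dod-3* at 4.24 ± 0.300. *hsp-12.3* at 2.63 ± 0.622 RPKM, *sod-3* at 1.08 ± 0.0152, *ctl-1* at 0.538 ± 0.116 and *hsp-12.6* at 0.463 ± 0.0753 were the low ones. The ranges of *ctl-2* and *mtl-1* came near each other, 8.66 RPKM at the lowest for *ctl-2* and 8.36 at the highest for *mtl-1*, and those of *ctl-1* and *hsp-12.6* overlapped. Several of the genes known as strong responders to low insulin signalling, *sod-3* and *hsp-12.6* among them, therefore rested on few reads: 24 and 17 for *sod-3* and 8 and 7 for *hsp-12.6* in N2.

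**Figure D2:**
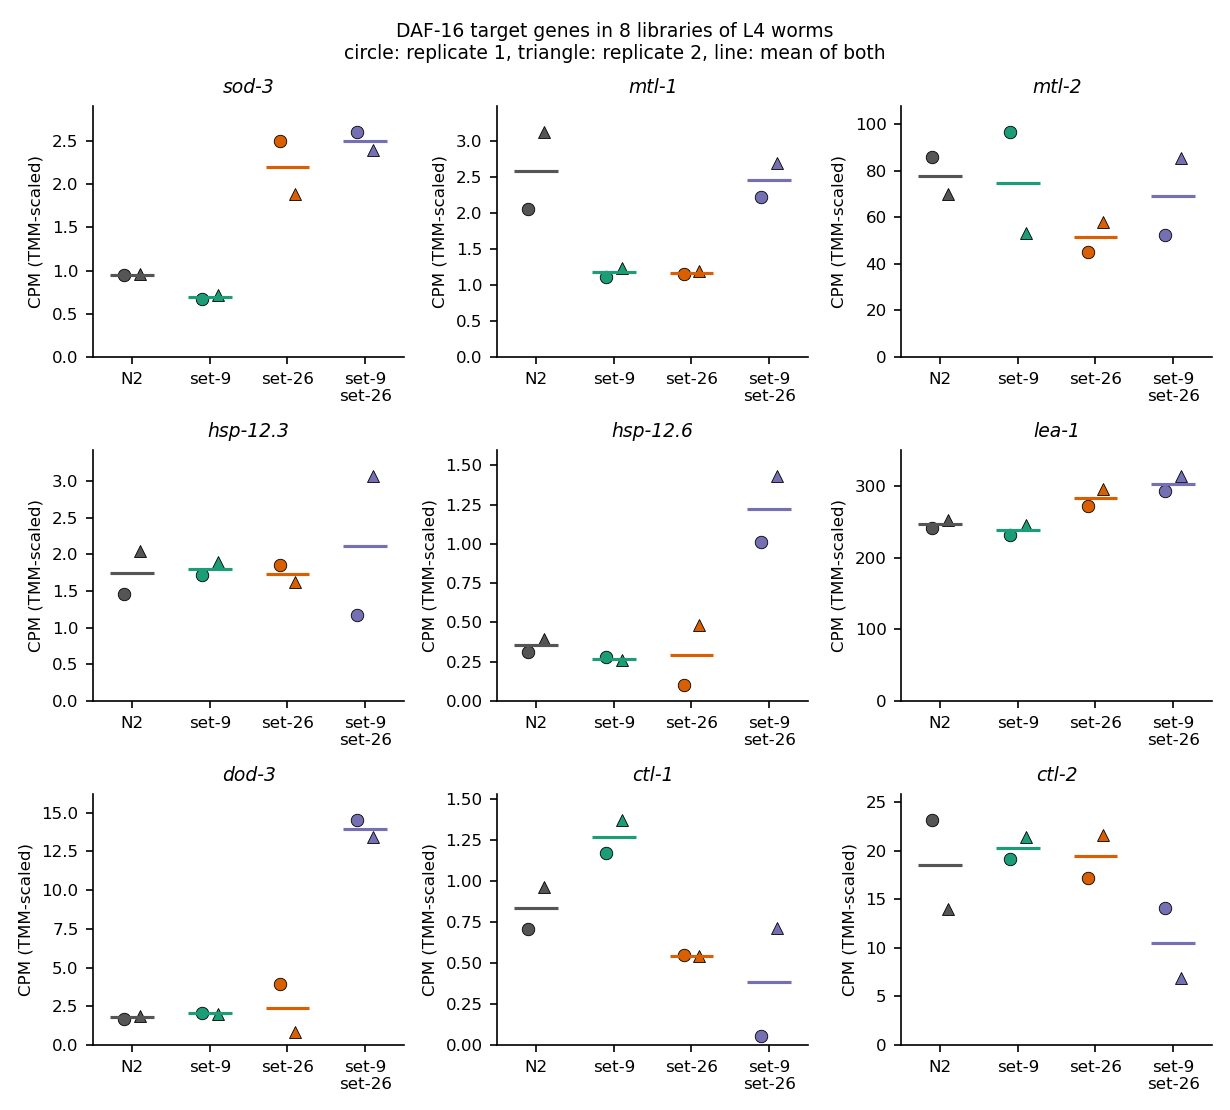
Level of each of the 9 genes in the 8 libraries, in CPM after TMM scaling on a linear axis that starts at 0, each gene on its own scale. Circles are replicate 1, triangles replicate 2 and lines the mean of both; *dod-3* is at 13.4 and 14.5 CPM in the double mutant and at most 3.95 elsewhere, and *mtl-1* is at 1.11 to 1.24 CPM in both single mutants and at 2.05 or more in N2 and the double mutant.

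The first question was which of these targets change with the loss of *set-9*, of *set-26* or of both. Calls were made with the quasi-likelihood test of edgeR, at a false discovery rate of 5% over all 14667 genes. By it 0 of 9 were called in *set-9* against N2, where 0.464% of all genes were called. In *set-26* against N2, 0 of 9 were called, with 2.39% of all genes. In the double mutant against N2, 1 of 9 was called, *dod-3*, which was higher, with 10.3% of all genes called and 4.42% called higher. At an unadjusted p under 0.05 the counts were 1, 2 and 4 of 9, against 13.3%, 16.3% and 29.2% of all genes. DESeq2's Wald test also called 0 of 9 in each single mutant against N2, with 3.42% of all genes called in *set-9* and 5.71% in *set-26*. edgeR's exact test called 0 of 9 in each as well, with 4.43% and 6.31% of all genes. The median log2 fold change over the 9 was -0.04, 0.00 and 0.28 in the 3 comparisons, and over all genes it was 0.00, 0.01 and 0.01. A share of 1 in 9 is close to the share of all genes called in the double mutant, so the count itself does not set these genes apart.

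**Figure D3:**
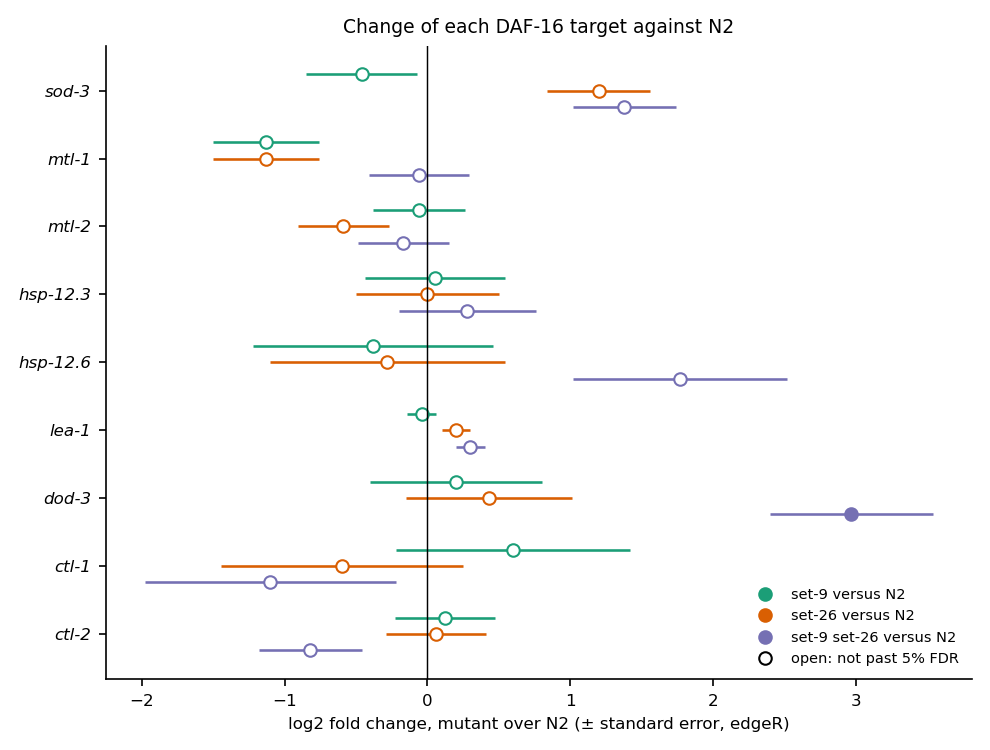
Log2 fold change of each of the 9 genes in each mutant against N2, with its standard error from edgeR as the horizontal bar. Filled points passed the 5% false discovery rate and open points did not; the only filled point is *dod-3* in the double mutant, at 2.97.

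Further comparisons set the mutants against each other, and an interaction term asked whether the change in the double mutant differs from the sum of the changes in the single mutants. In *set-26* against *set-9*, 0 of 9 were called by the quasi-likelihood test, with 0.695% of all genes, and 0 of 9 by DESeq2's Wald test, with 3.13%. At an unadjusted p under 0.05 there were 2 of 9, against 14.5% of all genes. In the double mutant against *set-9*, 3 of 9 were called higher, *sod-3*, *lea-1* and *dod-3*, with 14.2% of all genes called higher and 25.9% called in all. Only *dod-3* was called higher in the double mutant against *set-26*, 1 of 9, with 5.12% of all genes called higher and 10.4% in all. For the interaction 1 of 9 was called, *mtl-1*, with 8.27% of all genes called higher and 13.9% in all. These comparisons share libraries with one another and with those against N2.

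*dod-3* had the widest range of the 9 on the log2(CPM + 1) scale. The gene was named for lying downstream of DAF-16. It lies on chromosome V at 2730622 to 2731098 on the minus strand in WBcel235, with 2 exons, and no annotated gene overlaps it. Its reads numbered 43 and 33 in N2, 37 and 31 in *set-9* worms, 79 and 15 in *set-26* worms, and 274 and 263 in the double mutant. As CPM these were 1.69 and 1.87, 2.06 and 2.02, 3.95 and 0.811, and 14.5 and 13.4. Both double mutant libraries stood above all 6 others, and the 2 *set-26* libraries lay on either side of N2 and *set-9*, 4.87-fold apart.

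Against N2, *dod-3* was 7.83-fold higher in the double mutant, a log2 fold change of 2.97 ± 0.57 (SE; edgeR adjusted p = 0.022). It was 6.83-fold higher than in *set-9* (edgeR adjusted p = 0.013) and 5.81-fold higher than in *set-26* (edgeR adjusted p = 0.033). The single mutants did not pass against N2: the log2 fold change was 0.20 ± 0.60 in *set-9* (edgeR adjusted p = 0.94) and 0.43 ± 0.58 in *set-26* (edgeR adjusted p = 0.79). The interaction was 2.34 ± 0.81 and did not pass (edgeR adjusted p = 0.096). It passed with no filter on low counts (2.35, edgeR adjusted p = 0.011), by DESeq2's Wald test (2.35, adjusted p = 0.036) and without *set-26* replicate 1 (3.90, edgeR adjusted p = 0.0069), and it was 1.59 without *set-26* replicate 2 (edgeR adjusted p = 0.060). In *set-26* the direction depended on the library: the log2 fold change against N2 was -1.13 without *set-26* replicate 1 and 1.17 without *set-26* replicate 2.

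The *dod-3* calls against N2 and *set-9* were lost when either library of a compared group was left out, in fits that also called fewer genes over all. Without N2 replicate 1 the edgeR adjusted p against N2 was 0.079, without N2 replicate 2 it was 0.087, without double mutant replicate 1 it was 0.099 and without double mutant replicate 2 it was 0.11. The log2 fold change stayed between 2.89 and 3.04 in all 8 fits that left out a library. Against *set-9*, the edgeR adjusted p was 0.050 without *set-9* replicate 1, 0.069 without *set-9* replicate 2, 0.061 without double mutant replicate 1 and 0.060 without double mutant replicate 2. Against *set-26* it was 0.13 without either double mutant library, with log2 fold changes of 2.48 and 2.60. That difference depended in size on the *set-26* libraries: it was 4.09 without *set-26* replicate 1 (edgeR adjusted p = 0.0064) and 1.79 without *set-26* replicate 2 (edgeR adjusted p = 0.041), and passed in both fits.

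The other *dod* genes were named in the same way. Of the 9 other listed *dod* genes, 7 were tested, and against N2 the quasi-likelihood test called 0 in *set-9*, 1 higher in *set-26* and 0 in the double mutant. It called 0.464%, 2.39% and 10.3% of all genes in these comparisons. The one called in *set-26* was *dod-22*, at 2.56 and 1.53 CPM in N2 and 7.56 and 7.46 in *set-26* (log2 fold change 1.86 ± 0.32, edgeR adjusted p = 0.031). In the double mutant *dod-22* stood at 3.07 and 4.43 CPM, below both *set-26* libraries. The *dod-23* reads numbered 57 and 25 in N2, 14 and 3 in *set-26*, and 132 and 53 in the double mutant. It did not pass there against N2 (edgeR adjusted p = 0.21), but was higher than in *set-26* by 3.45 ± 0.76 on the log2 scale (edgeR adjusted p = 0.033). In that same comparison *dod-19* was called lower, by 0.71 ± 0.11 (edgeR adjusted p = 0.012), and the median of the 7 was -0.56. Against *set-26*, 10.4% of all genes were called in the double mutant. For the interaction 1 of the 7 was called higher, *dod-23*, and 3 lower, *dod-17*, *dod-19* and *dod-22*. That test called 8.27% of all genes higher and 13.9% in all. The 7 had a median log2 fold change of 0.14 in the double mutant against N2.

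The summed level of sperm markers was highest in the double mutant, as *dod-3* was. The 31 tested genes of a sperm list, mostly major sperm protein genes, summed to 322 to 767 CPM in N2, 151 to 330 in *set-9*, 340 to 554 in *set-26* and 1150 to 1180 in the double mutant. Of the 31, 3 were called higher in the double mutant against N2 and 0 lower, with 10.3% of all genes called and 4.42% called higher. The members of the major sperm protein family are near-identical to one another, so the values of single ones are uncertain. The summed level of 10 tested intestine genes was lowest in the double mutant, at 13500 to 13600 CPM in N2, 14500 to 15100 in *set-9*, 11800 to 12100 in *set-26* and 8170 to 8850 in the double mutant, with 6 of 10 called lower in the double mutant against N2. In that comparison 867 of all 14667 genes were called lower. The sums of 7 muscle genes, at 20600 to 20700 CPM, and of 6 metal handling genes, at 373 to 466, were also lowest in the double mutant. In the other genotypes they ran from 23100 to 27700 and from 545 to 758. Most of the metal handling sum was *ftn-2*, at 629 and 716 CPM in N2 and 428 and 339 in the double mutant. Of the 6, 1 was called lower in the double mutant against N2, *ftn-2*, and 1 higher, *ftn-1*. In RNA of whole worms, a change in the number of cells of a type and a change in RNA per cell cannot be told apart. The part of these shifts in the levels of *dod-3*, *sod-3* or the other genes was not tested.

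**Figure D4:**
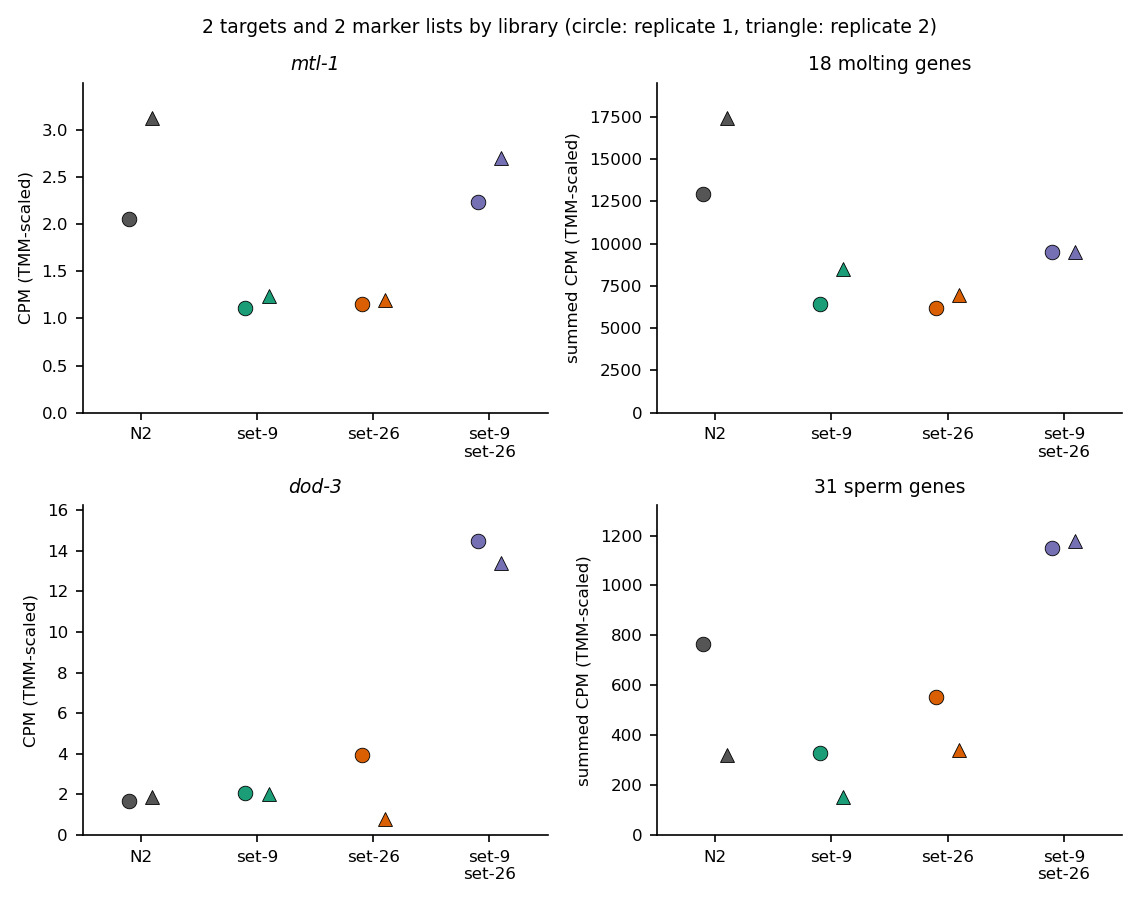
*mtl-1* and *dod-3* beside the summed CPM of 18 molting genes and of 31 sperm genes, in each of the 8 libraries, on linear axes from 0. Circles are replicate 1 and triangles replicate 2; *mtl-1* and the molting sum are lowest in the single mutants, and *dod-3* and the sperm sum are highest in the double mutant, at 14.5 and 13.4 CPM and at 1150 to 1180 CPM.

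*sod-3* encodes a mitochondrial manganese superoxide dismutase, which converts superoxide to hydrogen peroxide, and it is a widely used reporter of DAF-16 activity. It lies on chromosome X at 17092753 to 17094306 on the plus strand, with 5 exons. Its reads numbered 24 and 17 in N2, 12 and 11 in *set-9* worms, 50 and 35 in *set-26* worms, and 49 and 47 in the double mutant, or 0.945 and 0.964, 0.666 and 0.717, 2.50 and 1.89, and 2.60 and 2.40 CPM. All 4 libraries that lack *set-26* stood above all 4 that carry it, and the ranges of *set-26* and the double mutant overlapped.

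Against N2, the log2 fold change of *sod-3* was -0.46 ± 0.39 in *set-9* (edgeR adjusted p = 0.69), 1.20 ± 0.36 in *set-26* (edgeR adjusted p = 0.15) and 1.38 ± 0.36 in the double mutant (edgeR adjusted p = 0.051). None of the 3 passed, although the unadjusted p was 0.011 in *set-26* and 0.0054 in the double mutant. edgeR's exact test put the double mutant past the threshold, with an adjusted p of 0.0069, and it called 16.8% of all genes there. The double mutant was 3.59-fold higher than *set-9* (log2 fold change 1.84 ± 0.38, edgeR adjusted p = 0.013). *set-26* was 3.16-fold above *set-9* without passing (edgeR adjusted p = 0.11), and the double mutant differed from *set-26* by 0.18 ± 0.34 on the log2 scale (edgeR adjusted p = 0.77). The call against *set-9* was lost in each fit that left out a *set-9* or double mutant library, and these fits also called fewer genes over all. The log2 fold change ran from 1.78 to 1.9 in the 8 fits that left out a library.

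A pair of genes on the opposite strand, *lido-1* and C08A9.3, overlap the exons of *sod-3*, and the use of strand in the authors' counting is not stated. *lido-1* had 153 and 101 reads in N2 worms, 133 and 87 in *set-9* worms, 123 and 108 in *set-26* worms, and 167 and 133 in the double mutant. It did not pass against N2 in *set-9* (edgeR adjusted p = 0.85), *set-26* (0.97) or the double mutant (0.27). C08A9.3 had 0 reads in N2, *set-9* and *set-26*, and 2 and 4 in the double mutant. How many reads these genes share with *sod-3* was not tested. The other superoxide dismutases, catalases and peroxiredoxins of a list of 8, 7 of them tested, gave 0 calls in either single mutant and 1 in the double mutant against N2, *prdx-2*, a peroxiredoxin, which fell by 0.52 ± 0.12 on the log2 scale (edgeR adjusted p = 0.040). In the double mutant against N2, 10.3% of all genes were called. *sod-2*, the other mitochondrial superoxide dismutase, stood at 258 and 261 CPM in N2 and at 222 and 176 in the double mutant.

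*mtl-1* and *mtl-2* encode metallothioneins, small cysteine-rich proteins that bind metal ions. *mtl-1* lies on chromosome V at 6691371 to 6691863 on the minus strand, with 2 exons. Its reads numbered 52 and 55 in N2, 20 and 19 in *set-9* worms, 23 and 22 in *set-26* worms, and 42 and 53 in the double mutant, or 2.05 and 3.12, 1.11 and 1.24, 1.15 and 1.19, and 2.23 and 2.70 CPM. The 4 single mutant libraries stood below the other 4, and the range of the double mutant lay within that of N2.

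Against N2, the log2 fold change of *mtl-1* was -1.13 ± 0.37 in *set-9* (edgeR adjusted p = 0.25), -1.13 ± 0.37 in *set-26* (edgeR adjusted p = 0.18) and -0.06 ± 0.35 in the double mutant (edgeR adjusted p = 0.93). None of these passed, and neither did the double mutant against *set-9* (log2 fold change 1.07 ± 0.37, edgeR adjusted p = 0.071) or *set-26* (1.07 ± 0.37, edgeR adjusted p = 0.097). The interaction passed: on the log2 scale the double mutant was 2.20 ± 0.52 above the sum of the single changes (edgeR adjusted p = 0.034). DESeq2's Wald test gave the interaction an adjusted p of 0.059. The edgeR adjusted p was also above the threshold without N2 replicate 2 (0.078), *set-9* replicate 1 (0.071) or 2 (0.081), *set-26* replicate 1 (0.077) or 2 (0.098), or double mutant replicate 1 (0.080) or 2 (0.11), and only the fit without N2 replicate 1 kept it, at 0.041. The estimate ran from 1.87 to 2.48 over these fits, and each of them also called fewer genes over all for the interaction.

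The summed level of a list of molting genes was lowest in the single mutants, as *mtl-1* was. The 18 tested genes summed to 12900 to 17400 CPM in N2, 6410 to 8490 in *set-9*, 6200 to 6960 in *set-26* and 9520 to 9530 in the double mutant. Of the 18, 11 had both single mutant means below those of N2 and the double mutant, and the other 7 had another order. For the interaction, 10 of the 18 were called higher and 3 lower, with 8.27% of all genes called higher and 13.9% in all. The 3 lower were *nhr-25* (-2.30 ± 0.20, edgeR adjusted p = 0.0015), *fbn-1* (-1.89 ± 0.39, 0.023) and *mlt-7* (-1.70 ± 0.26, 0.012). Against N2 *nhr-25* was called higher in both single mutants, by 1.15 ± 0.14 in *set-9* and 1.39 ± 0.14 in *set-26* on the log2 scale, the opposite direction to *mtl-1*. *lin-42*, whose level cycles with the molts, stood at 410 and 555 CPM in N2, 232 and 335 in *set-9* worms, 219 and 258 in *set-26* worms, and 353 and 390 in the double mutant, with an interaction of 1.41 ± 0.29 on the log2 scale (edgeR adjusted p = 0.024). Against N2 *lin-42* did not pass in *set-9* (edgeR adjusted p = 0.17), *set-26* (0.053) or the double mutant (0.28). The part of a difference in stage within L4 in the level of *mtl-1* was not tested.

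*mtl-2*, on chromosome V at 14018270 to 14018673 on the minus strand, varied more between replicates than between genotypes. Its CPM was 85.8 and 70.1 in N2, 96.5 and 53.3 in *set-9* worms, 45.3 and 58.1 in *set-26* worms, and 52.6 and 85.7 in the double mutant. Only the ranges of N2 and *set-26* did not overlap, and the *set-9* replicates were 1.81-fold apart. The log2 fold change against N2 was -0.06 ± 0.32 in *set-9* (edgeR adjusted p = 0.97), -0.59 ± 0.32 in *set-26* (0.42) and -0.17 ± 0.32 in the double mutant (0.76). No stretch of 50 bases is shared between the exons of *mtl-1* and *mtl-2*, so their reads can be told apart. Of 6 other tested genes of metal handling, 0 were called in either single mutant by the quasi-likelihood test. Over all genes the shares called against N2 were 0.464% in *set-9*, 2.39% in *set-26* and 10.3% in the double mutant. In the double mutant *ftn-1*, one ferritin gene, rose by 1.26 ± 0.29 on the log2 scale (edgeR adjusted p = 0.038), and *ftn-2*, the other, fell by 0.81 ± 0.13 (edgeR adjusted p = 0.014).

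*hsp-12.3* and *hsp-12.6* encode small heat shock proteins and lie 721 bases apart on chromosome IV, at 9444791 to 9445507 and 9446229 to 9447228 on the minus strand. *hsp-12.6* had 8 and 7 reads in N2 worms, 5 and 4 in *set-9* worms, 2 and 9 in *set-26* worms, and 19 and 28 in the double mutant, and it was tested only because double mutant replicate 2 reached 20 reads. Its CPM was 0.315 and 0.397 in N2, 0.278 and 0.261 in *set-9* worms, 0.100 and 0.487 in *set-26* worms, and 1.01 and 1.43 in the double mutant. Both double mutant libraries were above all others, but the difference did not pass: the log2 fold change against N2 was 1.77 ± 0.75 (edgeR adjusted p = 0.17), with an unadjusted p of 0.048. In *set-9* it was -0.38 ± 0.84 (edgeR adjusted p = 0.91) and in *set-26* -0.28 ± 0.82 (0.91). The 2 reads of *set-26* replicate 1 are under the 3 reads that a count of 0 allows, so the level there is very imprecise at this depth.

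*hsp-12.3* stood at 1.46 and 2.04 CPM in N2, 1.72 and 1.89 in *set-9* worms, 1.85 and 1.62 in *set-26* worms, and 1.17 and 3.06 in the double mutant. The double mutant replicates, 2.62-fold apart, enclosed every other library. Its log2 fold change against N2 was 0.05 ± 0.49 in *set-9* (edgeR adjusted p = 0.98), 0.00 ± 0.50 in *set-26* (1.0) and 0.28 ± 0.48 in the double mutant (0.75). The last was -0.58 without double mutant replicate 2 and 0.81 without replicate 1.

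The *hsp-16* genes, small heat shock genes that heat and DAF-16 raise, were among the 8 other genes of this family tested, of which 0 were called in *set-9*, 1 higher in *set-26* and 3 higher in the double mutant against N2. Over all genes, 0.464%, 2.39% and 10.3% were called in these comparisons, with 4.42% called higher in the last. *hsp-16.1* had 29 and 31 reads in N2 worms, 40 and 42 in *set-9* worms, 218 and 208 in *set-26* worms, and 284 and 151 in the double mutant. The log2 fold change against N2 was 2.95 ± 0.38 in *set-26* (edgeR adjusted p = 0.014) and 2.99 ± 0.38 in the double mutant (edgeR adjusted p = 0.0066). It is 1 of 2 gene rows that carry this symbol in the annotation, and the other had 0 or 1 reads in each library, so its reads may belong to a near-identical copy. *hsp-16.41* had 1 and 1 reads in N2 and 34 and 48 in the double mutant (edgeR adjusted p = 0.022).

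*lea-1* encodes a protein related to the late embryogenesis abundant proteins of plants, which protect cells as they dry out. It lies on chromosome V at 10011923 to 10028168 on the plus strand, and acl-2 on the other strand overlaps its exons. With 3779 to 6150 reads a library, it was the most deeply counted of the 9. Its CPM was 241 and 252 in N2, 232 and 246 in *set-9* worms, 272 and 295 in *set-26* worms, and 293 and 313 in the double mutant. The 4 libraries that lack *set-26* stood above the 4 that carry it, and the order of the genotype means was that of *sod-3*.

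The log2 fold change of *lea-1* against N2 was -0.04 ± 0.10 in *set-9* (edgeR adjusted p = 0.92), 0.20 ± 0.10 in *set-26* (0.37) and 0.30 ± 0.10 in the double mutant (0.091). None of these passed. The double mutant was 1.27-fold higher than *set-9* (log2 fold change 0.34 ± 0.10, edgeR adjusted p = 0.040). That call was lost in all 8 fits that left out a library, at edgeR adjusted p-values of 0.053 and 0.054 without N2 replicates 1 and 2, 0.17 and 0.12 without *set-9* replicates 1 and 2, 0.051 and 0.056 without *set-26* replicates 1 and 2, and 0.079 and 0.15 without double mutant replicates 1 and 2. It was also lost when the *set-9* and double mutant libraries were fitted alone (edgeR adjusted p = 0.077) and with no filter on low counts (0.073). Fits that left out a *set-9* or double mutant library also called fewer genes over all. acl-2 stood at 22.2 and 25.8 CPM in N2 and at 18.4 and 11.2 in the double mutant, the opposite direction to *lea-1*.

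*ctl-1* and *ctl-2* encode catalases, which break down hydrogen peroxide, CTL-2 in the peroxisome and CTL-1 in the cytosol. They are neighbours on chromosome II, at 14303568 to 14306260 and 14299556 to 14302027 on the minus strand, with *ctl-3* as the other gene of the cluster. Of the 1358 stretches of 50 bases in the exons of *ctl-1*, 98.6% occur again in the genome, 86.1% in *ctl-3* and 19.7% in *ctl-2*. Its reads could therefore be split among copies, and its values are uncertain. For *ctl-2* 18.9% of stretches occur again, and no other gene of the 9 had a repeated stretch.

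*ctl-2* had 587 and 246 reads in N2 worms, 344 and 329 in *set-9* worms, 343 and 400 in *set-26* worms, and 266 and 136 in the double mutant, or 23.1 and 14.0, 19.1 and 21.4, 17.2 and 21.6, and 14.1 and 6.93 CPM. Double mutant replicate 2 was the lowest of the 8, and replicate 1 stood beside N2 replicate 2. Its log2 fold change against N2 was 0.12 ± 0.35 in *set-9* (edgeR adjusted p = 0.93), 0.06 ± 0.35 in *set-26* (0.96) and -0.82 ± 0.36 in the double mutant (0.17). The last was -1.42 without double mutant replicate 1, -0.40 without double mutant replicate 2 and -0.41 without N2 replicate 1. Of the alternatives and the fits that left out a library, only the one with no filter on low counts put it past the threshold against N2. *ctl-2* shares exon sequence with Y54G11A.7 on the other strand, which had 295 and 286 reads in N2 and 250 and 273 in the double mutant.

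*ctl-1* had 18 and 17 reads in N2 worms, 21 and 21 in *set-9* worms, 11 and 10 in *set-26* worms, and 1 and 14 in the double mutant, and it was tested only because of its *set-9* libraries. Both *set-9* libraries were the highest, at 1.17 and 1.37 CPM. The log2 fold change against N2 was 0.60 ± 0.82 in *set-9* (edgeR adjusted p = 0.84), -0.60 ± 0.85 in *set-26* (0.80) and -1.10 ± 0.88 in the double mutant (0.45). The last was -3.82 without double mutant replicate 2 and -0.22 without replicate 1. *ctl-3*, with which its reads could be shared, had 56 and 32 reads in N2 worms, 18 and 33 in *set-9* worms, 40 and 41 in *set-26* worms, and 38 and 58 in the double mutant.

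The regulators of these genes were measured in the same libraries. *daf-16* itself stood at 325 and 378 CPM in N2, 354 and 392 in *set-9* worms, 341 and 353 in *set-26* worms, and 261 and 309 in the double mutant. The double mutant libraries were the lowest pair, and no comparison with N2 passed: the log2 fold change was 0.08 ± 0.13 in *set-9* (edgeR adjusted p = 0.86), -0.02 ± 0.13 in *set-26* (0.96) and -0.30 ± 0.13 in the double mutant (0.16). Of the 20 genes of a list of insulin-like signalling and DAF-16 partners, *daf-16* included, 0 were called in either single mutant against N2 and 2 were called higher in the double mutant. These were *pdk-1*, a kinase that activates the AKT kinases, with 308 and 272 reads in N2 and 558 and 577 in the double mutant (log2 fold change 1.10 ± 0.15, edgeR adjusted p = 0.0086), and *akt-1*, one of those kinases, at 65.2 and 79.7 CPM in N2 and 107 and 104 in the double mutant (0.54 ± 0.13, edgeR adjusted p = 0.039). Both encode proteins that hold DAF-16 back. A count of 2 in 20 is close to the 10.3% of all genes called in the double mutant against N2, with 4.42% called higher. Against *set-9* both were called higher in the double mutant too, where 25.9% of all genes were called. In that comparison *sgk-1* (-0.53 ± 0.15, edgeR adjusted p = 0.038) and *par-5* (-0.40 ± 0.11, 0.036) of the same list were called lower.

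A list of 23 other genes known to be raised by DAF-16 had 17 tested members. In *set-9* against N2 0 were called, in *set-26* 1 was called higher, *hsp-16.1*, and in the double mutant 6 were called higher and 0 lower, where 4.42% of all genes were called higher. The medians of the 17 were 0.32, 0.36 and 0.62 on the log2 scale, against 0.00, 0.01 and 0.01 over all genes. Of the 6, 3 were *hsp-16* genes and another was *hsp-70*, an inducible chaperone with a log2 fold change of 3.04 ± 0.43 (edgeR adjusted p = 0.0086). Against *set-9*, 7 of the 17 were called higher in the double mutant and 4 lower, so the list did not move one way there. In that comparison 14.2% of all genes were called higher and 25.9% in all.

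For the 4 genes called in at least 1 comparison, the genes with the most similar pattern over the 8 libraries were looked up among 9383 tested genes with a mean of at least 5 CPM. The measure was the root mean square difference of log2(CPM + 1) values, each centred on its own mean, which compresses the range of genes near 1 CPM. For *sod-3* they were *clec-199* at 0.109 and *fbxa-155* at 0.136, for *mtl-1* C14H10.3 at 0.0719 and *phdh-1* at 0.0926, for *lea-1* *ari-1.1* at 0.0349 and Y54G2A.26 at 0.0432, and for *dod-3* F49D11.6 at 0.344 and F58H10.1 at 0.345. F49D11.6 stood at 2.76 and 2.04 CPM in N2, 3.39 and 1.24 in *set-9* worms, 5.10 and 1.51 in *set-26* worms, and 15.4 and 10.5 in the double mutant. Like *dod-3* it was higher in *set-26* replicate 1 than in replicate 2, a likeness favoured by its selection over these same libraries. The 9 genes were left out of that search, so none of them could be returned. The nearest of the 9 to *sod-3* was *lea-1*, at 0.326.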

How the data were processed

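The deposited table holds estimated counts per gene, not scaled for depth, that the authors made from ribosome-depleted total RNA (Ovation Human FFPE RNA-Seq kit). Reads of low quality were dropped by FASTX Toolkit, cutadapt trimmed adaptors, and Bowtie (Bowtie2 in the submitters' processing notes) took out tRNA and rRNA. TopHat2 aligned the rest to WS250, known junctions only, and Cufflinks gave the counts. Of the values above 0, 52.3% are whole numbers within 1e-06. The 93 entries named as landmarks (0.219 to 0.277% of reads) were left out. The second header line gives each library its own lane. Of the 24 samples, 16 are from chromatin immunoprecipitation and were not analysed here.

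Rounded counts went into edgeR 4.0.16 (R 4.3.3; TMM scaling, quasi-likelihood test). The 14667 genes that reached 20 reads in 1 or more libraries were tested. All 8 libraries entered 1 fit with a mean per genotype, and p-values were adjusted by Benjamini-Hochberg over all genes tested, with calls at 5%. Filter and rate are those of the study's methods, which also used edgeR. A standard error is the log2 fold change over the square root of F. Biological variation between replicates was 0.206 as edgeR's common coefficient. The alternatives were other scalings in edgeR (upper quartile, size factors of DESeq2), no filter, filterByExpr, the compared libraries alone, edgeR's exact test for the comparisons with N2, the Wald test of DESeq2 1.42.0, the replicate number as a block, and each library left out.

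All 9 genes are named in the comparisons with N2, and elsewhere those called. From the other lists, at most the 2 largest rises and 2 largest falls called against N2 are named. *dod-17*, *dod-19*, *dod-23*, *sgk-1*, *par-5*, *sod-2*, *lin-42* and the genes that overlap or resemble a member were added after their values were seen. The 9 genes and the lists were chosen with earlier results of these data known.

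Coordinates, exons, 50-base stretches and promoter windows come from WBcel235, the assembly behind WS250, with the Ensembl 115 annotation, which matched 45919 of the 46508 gene identifiers. Floors and spreads cover counting error and the spread between 2 libraries only.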

Additional observations from a re-analysis of the deposited data

Results flagged for a closer look

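The interaction of *mtl-1* was 2.20 on the log2 scale. It was flagged because the effect of losing *set-26* differed with and without *set-9*, by a test of that difference (edgeR adjusted p = 0.034). The same test called 13.9% of all genes, so the call itself does not set *mtl-1* apart. DESeq2's Wald test did not make the call (adjusted p = 0.059). The call was also lost in most fits that left out a library, where the estimate ran from 1.87 to 2.48 and fewer genes were called over all. *mtl-1* was at 2.05 and 3.12 CPM in N2 and at 1.15 and 1.19 in *set-26*, and at 1.11 and 1.24 in *set-9* and 2.23 and 2.70 in the double mutant. The summed level of 18 molting genes was also lowest in the single mutants, with 11 of the 18 in that order, and their part in this result was not tested.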

How the results depend on the processing

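Every call rests on 2 libraries a group and on as few as 11 reads a library for *sod-3*. In the comparisons with the double mutant and the interaction, fits that left out a compared library also called fewer genes over all. In the comparisons with N2, the 9 genes gave 0 calls in *set-9* and in *set-26* alike under all alternatives and all fits that left out a library. In the double mutant against N2 the count was 1, and it was 2 with no filter on low counts (*dod-3*, and *ctl-2* lower) and 2 by edgeR's exact test (*dod-3* and *sod-3*). Over all genes the shares called were 10.3%, 10.6% and 16.8%. With a library left out, *dod-3* was still called in some fits and lost in others. Against *set-9* the count was 3, 2 to 4 under the other alternatives and 0 to 2 with a library left out, and *ctl-2* was called lower with no filter, by DESeq2's Wald test and without double mutant replicate 1, and *ctl-1* without replicate 2. Against *set-26* it was 1, 2 with no filter (*dod-3*, and *ctl-2* lower) and 0 to 1 with a library left out. For the interaction it was 1, 2 with no filter (*mtl-1* and *dod-3*), 1 by DESeq2's Wald test, where *dod-3* took the place of *mtl-1*, and 0 to 1 with a library left out, the 1 being *dod-3* without *set-26* replicate 1 and *mtl-1* without N2 replicate 1. The cause was not tested. For single genes, 244 of 256 values under the alternatives and 218 of 264 with a library left out kept their direction and side of the threshold.

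Values near 0 changed sign. For *hsp-12.3* in *set-26* against N2 the log2 fold change was 0.00, and it was 0.01 with DESeq2's size factors, 0.05 with upper quartile scaling, 0.03 with the replicate block and 0.00 by DESeq2. With a library left out, the ranges were, in *set-9* against N2, -0.55 to 0.31 for *mtl-2*, -0.18 to 0.31 for *hsp-12.3*, -0.08 to 0.00 for *lea-1* and -0.19 to 0.54 for *ctl-2*. In *set-26* against N2 they were -0.23 to 0.25 for *hsp-12.3*, -1.74 to 0.46 for *hsp-12.6*, -1.13 to 1.17 for *dod-3* and -0.25 to 0.47 for *ctl-2*. In the double mutant against N2 they were -0.34 to 0.27 for *mtl-1*, -0.57 to 0.14 for *mtl-2* and -0.58 to 0.81 for *hsp-12.3*.

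Over all genes, the share of higher calls in *set-26* against N2 was 40.7% and became 51.3% with upper quartile scaling. Fitting the replicate number as a block gave 2 calls among the 9 in the double mutant against N2, *dod-3* and *lea-1* (edgeR adjusted p = 0.042), and no other call among them changed. Under that fit 16.6% of all genes were called in this comparison, against 10.3% without it. The correlation of same-numbered deviations ran from 0.223 to 0.351 among N2, *set-9* and *set-26* and from 0.0679 to 0.104 between these and the double mutant. The sum of 10 oocyte genes was also higher in replicate 1 than in replicate 2 of N2 (1340 and 800 CPM), *set-9* (1220 and 827) and *set-26* (1330 and 775). The double mutant had the reverse order (1210 and 1290). Same-numbered libraries of N2, *set-9* and *set-26* thus shared some variation. With 2 pairs a comparison and no label that ties the numbers to a culture, its source cannot be told and was not tested.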
